A study of Homo sapiens with 12 samples.

Results

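Genes of myoblast fusion and muscle membrane repair were followed in RD, a human rhabdomyosarcoma cell line. This childhood tumour has features of developing muscle, and the RD line lacks the PAX-FOXO1 fusion gene. The genes were taken by name as 7 of the 26485 gene rows of the deposited count table: TMEM8C (the older symbol of myomaker, MYMK), NCAM1, CAV3, BIN1, DYSF, MYOF and CAPN3. Each line carried a hairpin construct, ish or ish2, that doxycycline (Dox) switched on and that targeted NT5E, which encodes the surface enzyme CD73. After 24 h of attachment, cells of each line spent 96 h in medium with Dox at 10 ng/mL or in medium lacking the drug, in 4 groups of 3 libraries. The uninduced cells of a line, which hold the same hairpin construct, were its controls, and no sample joined Dox to a non-targeting hairpin. Effects of Dox itself, of hairpin expression and of lower NT5E therefore cannot be told apart, and the sources used here do not say whether a line is 1 clone. The labels do not say that replicates came from separate cultures, so p-values measure the spread between libraries, which may be technical.

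Skeletal muscle fibres form when single myoblasts stop dividing, adhere and fuse. Myomaker is the muscle-specific membrane protein that drives the merging of myoblast membranes, and it acts with the small protein myomixer. A contracting fibre tears its surface membrane often and reseals it in a calcium-dependent way, for which dysferlin is best known. Caveolin-3 builds the caveolae of muscle, and amphiphysin-2, the product of BIN1, bends membrane into the T-tubules that carry excitation into the fibre. Loss of dysferlin, caveolin-3 or calpain-3 causes muscle disease in people.

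The libraries held 26566603 to 32692207 gene counts, and all 7 genes passed the filter on low counts. NT5E, the target, was at 14.9, 17.96 and 17.3 CPM (counts scaled to the size of the library, with TMM factors) in ish without Dox and at 1.94, 1.23 and 1.54 CPM with Dox. The ish2 libraries had 24.1, 23.5 and 22.1 CPM without Dox and 14.5, 15.2 and 14.1 CPM with Dox. The target thus fell in both constructs, by 3.41 in ish and by 0.67 in ish2 on the log2 scale. The labelled muscle lineage was present: of 8 markers, DES averaged 305.4 CPM and CHRNA1 999.3 CPM in uninduced ish, whereas MYF5 had 0 reads there and MYF6 averaged 0.108 CPM. The summed level of those 8 markers ran from 2515 to 2626 CPM in ish without Dox and from 3340 to 3542 CPM with it. In ish2 the same sums were 2601 to 2652 CPM without Dox and 2330 to 2370 CPM with it. The markers in these sums did not all move together. In ish, MYOG went from 106.2 to 654.4 CPM, and DES, MYOD1, MYF6 and CHRND also rose. FGFR4 fell there from 429.9 to 212.4 CPM and CHRNA1 from 999.3 to 823.8 CPM. In ish2, DES rose from 315.7 to 494.4 CPM and MYOD1 also rose, while FGFR4, CHRND and MYOG fell. The sums of 7 fibroblast markers were 3842 to 3932 CPM without Dox and 5093 to 5280 CPM with it in ish. In ish2 they were 4533 to 4564 CPM without Dox and 5029 to 5101 CPM with it. COL3A1 gave most of these reads. COL1A1, THY1 and PDGFRB were also present, with means of 170.6, 183.3 and 7.15 CPM in uninduced ish. Mean PDGFRA and DCN stayed under 1 CPM in every group, and LUM reached 1.34 CPM in ish with Dox. Summed endothelial and immune markers reached at most 11.2 and 3.73 CPM. Epithelial sums were 31.9 to 33.7 CPM in ish without Dox, 6.79 to 8.67 CPM with it, 37.5 to 42.5 CPM in ish2 without Dox and 60.2 to 61.2 CPM with it, and neural sums were 390.6 to 391.5, 543.2 to 568.6, 439.8 to 457.9 and 416.9 to 435.8 CPM in the same order. The part of any change in cell type or state in the results was not tested. In RNA from whole cultures, fewer cells that express a gene and less RNA per cell cannot be told apart.

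With Dox, all 7 genes rose in ish and 3 of 7 rose in ish2. Of the 15206 genes tested, 39.1% were called higher in ish and 33.9% in ish2 (edgeR quasi-likelihood test, Benjamini-Hochberg adjusted p under 0.05 over all genes), and 78.6% and 65.0% in either direction. The groups with and without Dox did not overlap for all 7 members in ish, with Dox on top, beside 40.0% of all genes. In ish2 they did not overlap for 3 members with Dox on top (34.7% of all genes) and 1 with Dox below (31.9%). In ish the largest rises were those of CAV3 (15.4-fold) and TMEM8C (5.86-fold), followed by NCAM1 (1.98-fold), DYSF (1.86-fold) and BIN1 (1.75-fold). In ish2, DYSF (2.00-fold), MYOF (log2 fold change 0.58) and BIN1 (1.21-fold) rose, TMEM8C and CAPN3 fell, and CAV3 and NCAM1 were not called. The share that fell in ish2, 2 of 7, stood beside 31.1% of all genes tested. The median log2 fold change of the 7 was 0.90 in ish, where the median of all tested genes was -0.0078, and 0.0036 in ish2, where it was 0.013.

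**Figure D1:**
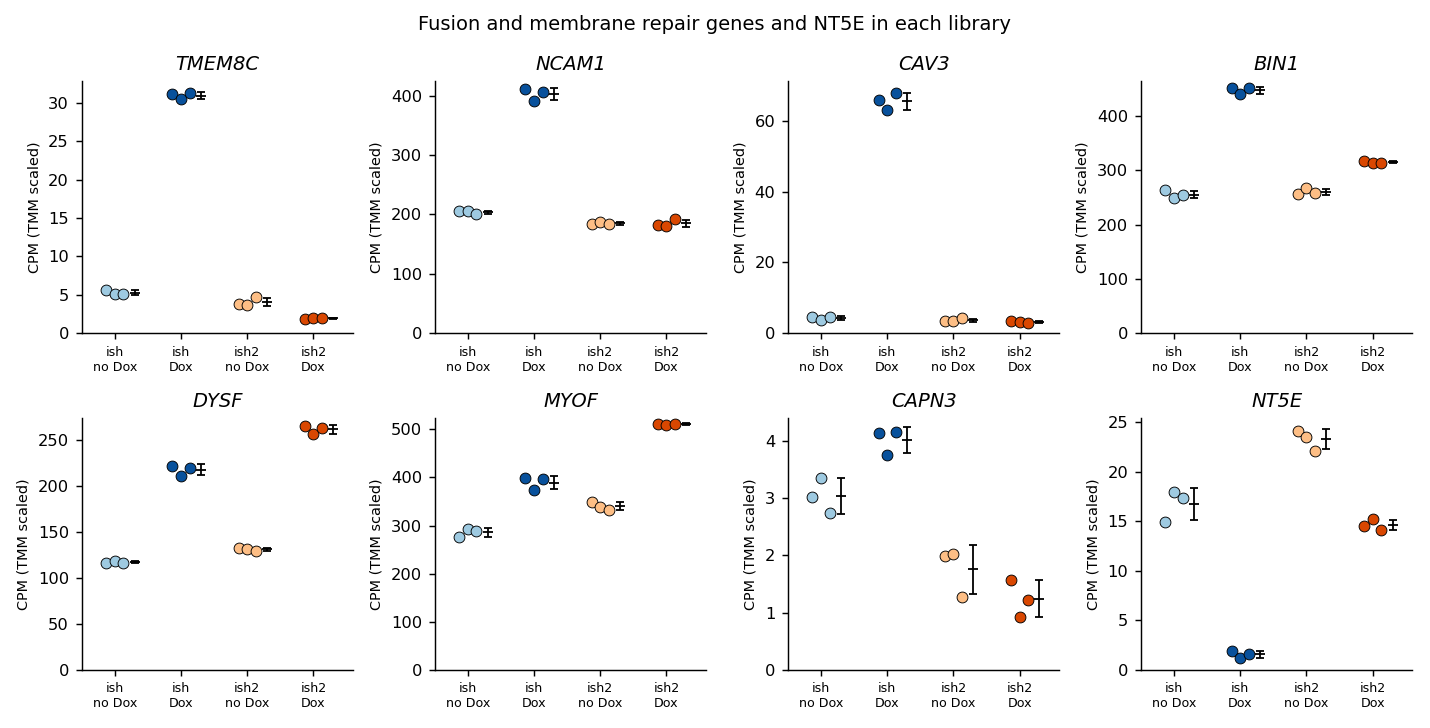
CPM (vertical axis, linear from 0) of the 7 genes and of NT5E in each of the 12 libraries, with the mean and SD of 3 libraries beside each group. CAV3 and TMEM8C stand high in the 3 ish libraries with Dox, while DYSF and MYOF stand high with Dox in both constructs.

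TMEM8C encodes myomaker, the fusion protein of the myoblast membrane. It was at 5.597, 5.11 and 5.15 CPM in ish without Dox and at 31.1, 30.5 and 31.3 CPM with Dox. The ish2 libraries had 3.79, 3.64 and 4.66 CPM without Dox and 1.85, 1.93 and 2.01 CPM with Dox. The ish groups were far apart with Dox on top, and the ish2 groups were apart in the other direction. The log2 fold change was 2.55 in ish (SE 0.07, edgeR adjusted p = 1.22e-28) and -1.06 in ish2 (SE 0.13, adjusted p = 4.66e-09), a 2.09-fold fall. Without the uninduced ish2 library of replicate 3, the highest of that group, the log2 fold change was -0.96 (adjusted p = 8.71e-08). The effects in the 2 constructs differed by 3.61 on the log2 scale (95% confidence interval -3.91 to -3.32 for ish2 minus ish, edgeR adjusted p = 2.42e-22). The rise in ish was the 234th highest of the 15206 log2 fold changes. In GRCh38, TMEM8C lies on the minus strand of chromosome 9, from 133514586 to 133528612, and no other annotated gene overlaps it. No row of the count table was matched to MYMX, the gene of its partner myomixer, so MYMX was not analysed.

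The level of TMEM8C was also set against that of MYOG, which encodes myogenin, the factor of late muscle differentiation, in the same library and per kilobase of exon. In ish this ratio was 0.0754 ± 0.00127 (SD, n = 3) without Dox and 0.0718 ± 0.000826 with Dox, so both genes rose nearly in step. In ish2 it was 0.0738 ± 0.00544 without Dox and 0.167 ± 0.0170 with Dox. MYOG fell 4.73-fold there, from 82.9 ± 10.3 to 17.6 ± 1.03 CPM, and TMEM8C fell by less. Each pair of groups was apart, and the exact two-sided permutation p was 0.1 in each construct, the smallest that 3 against 3 can give. MYOD1, the muscle-determining factor, went from 133.6 ± 4.46 to 150.4 ± 4.35 CPM in ish2 (log2 fold change 0.17, SE 0.03, edgeR adjusted p = 1.25e-05).

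NCAM1 encodes an adhesion molecule of the immunoglobulin family that myoblasts carry on their surface. It was at 205.04, 204.98 and 200.1 CPM in ish without Dox and at 411.5, 391.6 and 405.5 CPM with Dox. For ish2 the values were 184.1, 186.6 and 183.1 CPM without Dox and 182.8, 180.9 and 191.4 CPM with Dox. The ish groups did not overlap, whereas the ish2 groups did. The rise in ish was 1.98-fold (log2 fold change 0.99, SE 0.03, edgeR adjusted p = 6.07e-28), and the log2 fold change in ish2 was 0.0036, with a 95% confidence interval of -0.05 to 0.06. The difference of the effects was -0.98 (ish2 minus ish, edgeR adjusted p = 1.01e-22). NCAM1 lies on chromosome 11 from 112961247 to 113278436, plus strand. Exons of NCAM1-AS1 and AP000802.1 overlap it on the other strand, and since the sources used here do not state the strand setting of the counting, their reads cannot be told apart from those of NCAM1.

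CAV3, the muscle caveolin, was at 4.64, 3.61 and 4.56 CPM in ish without Dox and at 66.0, 63.1 and 67.9 CPM with Dox. Its ish2 levels were 3.32, 3.34 and 4.16 CPM without Dox and 3.50, 3.04 and 2.97 CPM with Dox. The induced ish libraries were all far above the other 9 libraries, which lay between 2.97 and 4.64 CPM. The log2 fold change in ish was 3.94 (SE 0.06, edgeR adjusted p = 1.8e-34), the 63rd highest of all genes tested. In ish2 it was -0.19 (95% confidence interval -0.45 to 0.07, adjusted p = 0.197), and the groups overlapped. The effects differed by -4.13 (ish2 minus ish, adjusted p = 3.79e-23). CAV3 lies on chromosome 3 from 8733800 to 8841808, plus strand, and OXTR, RAD18 and SSUH2 overlap its span on the other strand, though no exon of theirs overlaps one of its exons.

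The other caveolins moved differently. CAV1, the caveolin of most other cell types, went from 33.3 ± 1.39 to 28.0 ± 0.404 CPM in ish (log2 fold change -0.25, SE 0.05) and from 46.9 ± 2.98 to 91.5 ± 3.64 CPM in ish2 (0.96, SE 0.04). CAV2 fell by 0.21 in ish and rose by 1.31 in ish2, and both changes were called. Per kilobase of exon, the ratio of CAV3 to CAV1 was 0.268 ± 0.0309 in ish without Dox and 4.90 ± 0.173 with Dox. In ish2 the ratio was 0.161 ± 0.0253 without Dox and 0.0723 ± 0.00561 with Dox. CAV3 thus exceeded CAV1 per length in the 3 induced ish libraries and lay below it in the other 9 libraries. The exact two-sided permutation p of the ratio was 0.1 in each construct.

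**Figure D2:**
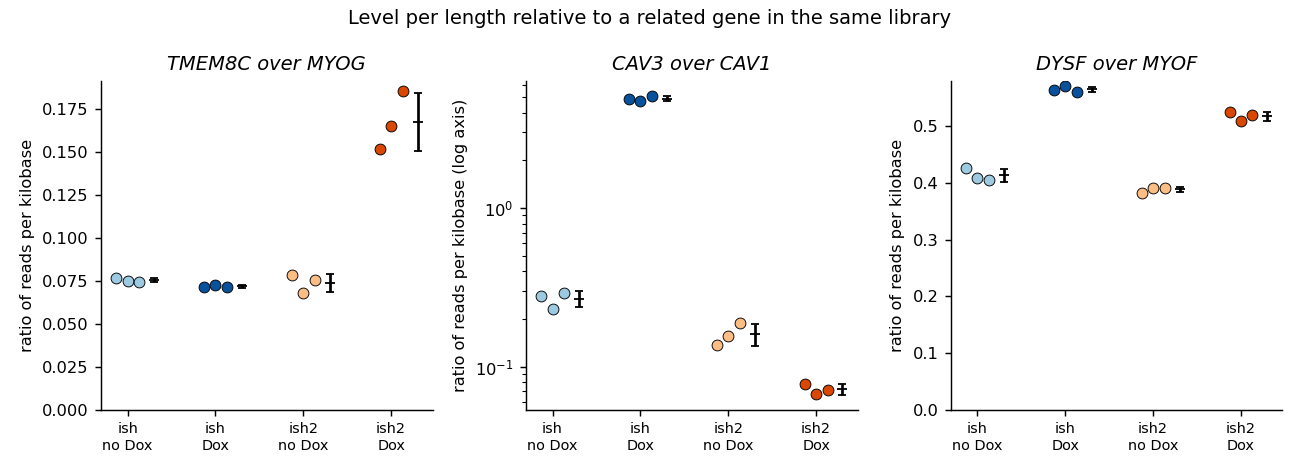
Ratios of reads per kilobase of exon within each library for TMEM8C over MYOG, CAV3 over CAV1 (log axis) and DYSF over MYOF, with the mean and SD of 3 libraries per group. The ratio of CAV3 to CAV1 passes 1 in the ish libraries with Dox alone, and the ratio of TMEM8C to MYOG is highest in the ish2 libraries with Dox.

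BIN1 was at 262.9, 249.6 and 253.8 CPM in ish without Dox and at 451.4, 440.5 and 451.9 CPM with Dox. Its ish2 levels were 256.7, 267.2 and 258.3 CPM without Dox and 317.5, 314.2 and 313.3 CPM with Dox. The groups did not overlap in either construct, and the induced level was higher in ish than in ish2. The log2 fold changes were 0.81 in ish (SE 0.03, edgeR adjusted p = 8.1e-26) and 0.27 in ish2 (SE 0.03, adjusted p = 1.9e-11), and they differed by -0.54 (adjusted p = 1.13e-15). BIN1 lies on the minus strand of chromosome 2 from 127048027 to 127107355. The counts cover all its transcripts together, so the muscle form that bends T-tubules was not measured apart from the forms of other tissues.

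The ferlins are large membrane proteins with many calcium-binding C2 domains. Dysferlin acts in membrane resealing, and myoferlin, its close relative, is known for its part in myoblast fusion. DYSF was at 116.5, 118.5 and 116.2 CPM in ish without Dox and at 222.4, 211.01 and 220.1 CPM with Dox. Its ish2 levels were 132.7, 131.4 and 129.0 CPM without Dox and 265.9, 256.5 and 263.5 CPM with Dox. Both constructs showed groups well apart, with Dox on top. The log2 fold changes were 0.90 in ish (SE 0.03, edgeR adjusted p = 3.31e-26) and 1.00 in ish2 (SE 0.03, adjusted p = 8.54e-27).

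MYOF was at 275.9, 293.1 and 289.3 CPM in ish without Dox and at 398.2, 373.6 and 396.4 CPM with Dox. Its ish2 levels were 349.8, 339.1 and 332.7 CPM without Dox and 512.0, 508.98 and 511.3 CPM with Dox. Again every library with Dox lay above every library without it in the same construct. The log2 fold changes were 0.44 in ish (SE 0.03, adjusted p = 7.3e-17) and 0.58 in ish2 (SE 0.03, edgeR adjusted p = 8.29e-20). These were the members whose change was larger in ish2 than in ish, by 0.10 for DYSF (95% confidence interval 0.03 to 0.18, adjusted p = 0.0167) and by 0.14 for MYOF (0.06 to 0.22, adjusted p = 0.00175). The DYSF difference was not called by DESeq2 (adjusted p = 0.0683), nor by edgeR without replicate 2 of ish with Dox (0.0865), replicate 2 of ish without Dox (0.0559) or replicate 1 of ish2 with Dox (0.0512), in a range of 0.00329 to 0.0865 over all alternatives. Per kilobase of exon, DYSF stood at 0.414 ± 0.0112 of MYOF in uninduced ish and at 0.565 ± 0.00490 with Dox, and at 0.389 ± 0.00479 and 0.518 ± 0.00804 in ish2. DYSF lies on chromosome 2 from 71453722 to 71686768, plus strand, and MYOF on the minus strand of chromosome 10 from 93306429 to 93482317.

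CAPN3, the calpain protease of muscle, had the lowest counts of the 7, from 25 to 135 reads per library. It was at 3.03, 3.35 and 2.73 CPM in ish without Dox and at 4.13, 3.75 and 4.15 CPM with Dox. Its ish2 levels were 1.99, 2.03 and 1.27 CPM without Dox and 1.58, 0.927 and 1.21 CPM with Dox. The ish groups were apart by a small margin, and the ish2 groups overlapped. The log2 fold change was 0.40 in ish (SE 0.13, edgeR adjusted p = 0.00708) and -0.49 in ish2 (SE 0.20, adjusted p = 0.0291). The ish2 call was lost without any one of 4 libraries: replicate 2 or 3 with Dox (adjusted p = 0.143 and 0.061) and replicate 1 or 2 without Dox (0.116 and 0.119), in a range of 0.00225 to 0.143 over all alternatives. CAPN3 lies on chromosome 15 from 42359500 to 42412318, plus strand, and exons of AC012651.1 overlap it on the same strand, where reads may be set aside or shared.

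**Figure D3:**
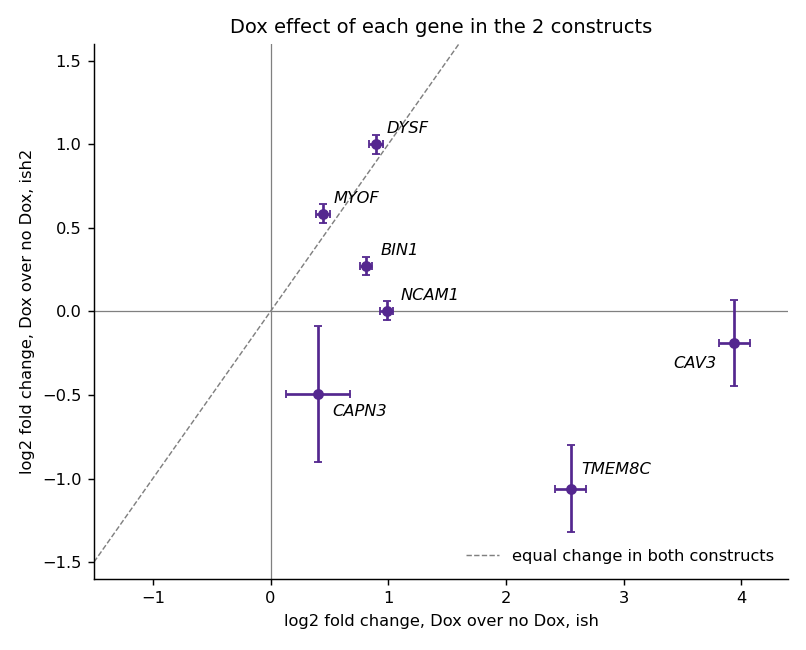
Log2 fold change with Dox in ish (horizontal axis) and in ish2 (vertical axis) for the 7 genes, with 95% confidence intervals from the edgeR fit and a dashed line of equal change. DYSF and MYOF lie just above the line, CAV3, TMEM8C, NCAM1 and BIN1 to its right, and TMEM8C lowest of all at -1.06 in ish2.

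Set side by side, DYSF, MYOF and BIN1 rose in both constructs, 3 of 7 beside 13.8% of all genes tested. TMEM8C and CAPN3 rose in ish and fell in ish2, as did 1831 of the 15206 genes tested. The difference of the Dox effects was called for all 7 (72.6% of all genes), with 5 lower and 2 higher in ish2, beside 35.2% and 37.4%. Over the 12 libraries, Pearson's r of log2 CPM was 0.99 between CAV3 and NCAM1, 0.96 between CAV3 and TMEM8C and 0.94 between DYSF and MYOF. It was 0.054 between TMEM8C and DYSF and -0.25 between TMEM8C and MYOF. Since the libraries fall into 4 groups of 3, these values describe the group means and carry no p. The values of CAV3 with NCAM1 and TMEM8C rest mainly on ish with Dox. CAV3 was at 63.1 to 67.9 CPM there and at no more than 4.64 CPM in the other groups.

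Before induction the lines already differed for 5 of the 7 genes, beside 26.1% of all genes tested. Without Dox, ish2 stood above ish for DYSF (log2 difference 0.16) and MYOF (0.25) and below it for TMEM8C (-0.39), NCAM1 (-0.14) and CAPN3 (-0.79), 2 higher and 3 lower of 7 beside 13.7% and 12.4% of all genes. CAV3 (-0.24, edgeR adjusted p = 0.13) and BIN1 (0.03, adjusted p = 0.44) were not called. The CAV3 difference was called without replicate 2 of ish (adjusted p = 0.0363) or replicate 3 of ish2 (adjusted p = 0.0464), both uninduced, in a range of 0.0363 to 0.35 over its alternatives. With the replicate number as a block the CAPN3 difference was -0.56 (edgeR adjusted p = 0.138).

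Levels of different genes were compared as RPKM (CPM per kilobase), with the merged exons of each gene as its length. In uninduced ish the order was BIN1 (36.9 ± 0.982), MYOF (33.8 ± 1.06), NCAM1 (16.0 ± 0.221), DYSF (14.0 ± 0.150), TMEM8C (5.24 ± 0.268), CAV3 (2.18 ± 0.295) and CAPN3 (0.608 ± 0.0619), with each neighbour farther apart than the sum of both SDs. With Dox in ish, BIN1 (64.6 ± 0.932) and MYOF (46.0 ± 1.62) led, and DYSF (26.0 ± 0.718) and CAPN3 (0.804 ± 0.0451) were lowest. Between them, CAV3 (33.6 ± 1.24), NCAM1 (31.6 ± 0.80) and TMEM8C (30.7 ± 0.417) came close to one another. The neighbours among these 3 did not differ beyond their spread. That closeness held with merged exons alone: with the longest single transcript as the length, NCAM1 was at 66.6, CAV3 at 45.9 and TMEM8C at 37.9 RPKM. With that length NCAM1 also stood above MYOF, which was at 58.0 RPKM, and BIN1 still led at 87.1 RPKM. In uninduced ish2, MYOF (40.2 ± 1.02) and BIN1 (37.6 ± 0.814) led, followed by DYSF (15.6 ± 0.225), NCAM1 (14.5 ± 0.143), TMEM8C (4.001 ± 0.547), CAV3 (1.84 ± 0.244) and CAPN3 (0.352 ± 0.0858). With Dox in ish2, MYOF reached 60.3 ± 0.187, BIN1 45.5 ± 0.316 and DYSF 31.2 ± 0.581 RPKM, while NCAM1 was at 14.5 ± 0.439, TMEM8C at 1.92 ± 0.0809, CAV3 at 1.62 ± 0.145 and CAPN3 at 0.248 ± 0.0651. The place of NCAM1 depended on its length in uninduced ish2 too: with the longest transcript it stood at 30.5 RPKM, above DYSF at 19.3. In uninduced ish and in induced ish2 its place was the same with either length.

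**Figure D4:**
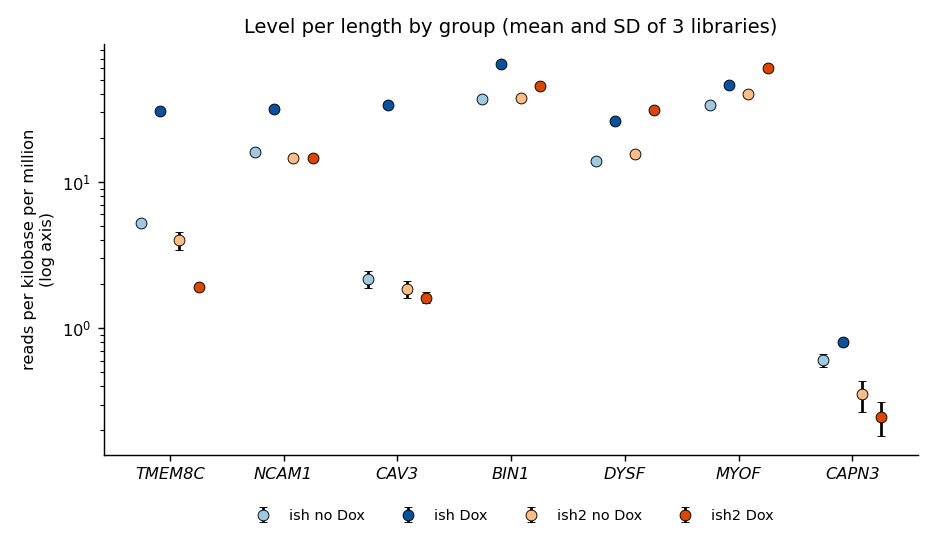
RPKM, that is CPM per kilobase of exon (vertical log axis), of the 7 genes in the 4 groups, as mean and SD of 3 libraries. With this length, by merged exons, TMEM8C, CAV3 and NCAM1 lie between 30.7 and 33.6 in ish with Dox (37.9, 45.9 and 66.6 with the longest transcript), and CAPN3 stays under 1 in every group.

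By the same correlation over 12 libraries, the genes whose pattern came closest were sought among 12389 others. For TMEM8C these were TNNI1, the slow muscle troponin I (r = 0.998), and FAM171A2 (0.998). For CAV3 they were MYOM3, an M-band myomesin (0.998), and ACTN3, the fast-fibre actinin (0.998), and for NCAM1 PSKH1 (0.997) and NPNT, the matrix protein nephronectin (0.997). For DYSF they were ITGA6, an integrin subunit (0.997), and NOL9 (0.995), and for MYOF TNC, the matrix protein tenascin-C (0.994), and the transcription factor gene RUNX1 (0.990). BIN1 was nearest to TBCA (0.997) and JPH2, a junctophilin that ties T-tubules to the calcium store (0.996), and CAPN3 to PYROXD2 (0.973) and SERINC4 (0.971). With Spearman's correlation the gene ranked closest was another one for each of the 7, and DYSF and MYOF were then each other's closest (rho = 0.993).

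The genes around the members were given from lists of other fusion genes, other repair genes, caveola genes (caveolins, cavins and PACSINs), and T-tubule genes. The counts of each list stand beside the shares of all genes tested, 39.1% higher and 39.5% lower in ish and 33.9% higher and 31.1% lower in ish2. Of 36 other fusion genes tested, 14 rose and 16 fell in ish (median log2 fold change -0.037) and 14 rose and 11 fell in ish2 (-0.019). CDON, a surface co-receptor that promotes myogenic differentiation, fell from 413.2 ± 5.61 to 100.2 ± 0.954 CPM in ish (log2 fold change -2.04, SE 0.03) and from 456.9 ± 7.56 to 297.1 ± 8.11 CPM in ish2 (-0.62, SE 0.03). ELMO1, which works with DOCK1 to activate RAC, rose by 2.07 in ish and by 1.03 in ish2 on the log2 scale, at no more than 3.61 CPM in any library. FER1L5, a further ferlin, rose by 2.91 in ish to 1.63 ± 0.292 CPM and was not called in ish2 (0.37). NFATC2, a transcription factor of muscle growth, rose by 0.79 in ish2 and fell by 1.54 in ish.

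The cadherins of myoblasts, picked by role after their values were seen, moved against each other. CDH15, the muscle M-cadherin, rose from 188.4 ± 6.69 to 377.2 ± 8.96 CPM in ish and fell from 198.4 ± 8.73 to 132.8 ± 1.75 CPM in ish2. CDH2, the N-cadherin, fell from 439.7 ± 12.7 to 150.5 ± 1.38 CPM in ish and rose from 385.6 ± 28.4 to 556.3 ± 6.32 CPM in ish2. The log2 difference of the Dox effects (ish2 minus ish) was -1.58 for CDH15 and 2.08 for CDH2 (edgeR adjusted p = 4.32e-27 and 2.13e-19). CDH15 thus moved in each construct in the direction of TMEM8C, and CDH2 in the opposite one. Such opposite calls were common. Of the 36 other fusion genes, 5 were higher in ish and lower in ish2, and 5 the reverse. Of the 15206 genes tested, 1831 and 2140 were called in these ways.

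Of 35 other membrane repair genes tested, 17 rose and 16 fell in ish (median 0.049) and 15 rose and 11 fell in ish2 (0.065), beside 39.1% and 39.5% of all genes in ish and 33.9% and 31.1% in ish2. Unlike DYSF, the 3 listed genes with the largest changes in ish fell: AHNAK, a giant scaffold that binds dysferlin, from 310.5 ± 14.4 to 70.2 ± 1.80 CPM (log2 fold change -2.14, SE 0.07), S100A11 (-1.504, SE 0.03) and SYT7, the synaptotagmin of lysosome exocytosis (-2.74, SE 0.06). In ish2, ANXA1, an annexin that binds dysferlin, rose from 104.4 ± 6.90 to 280.1 ± 5.07 CPM (1.42, SE 0.03), S100A10 by 1.04 and ANXA4 by 0.87. Of these, AHNAK, ANXA1, S100A10 and S100A11 were among 13 genes of the list that were called in opposite directions in the 2 constructs (of 15206 genes tested, 1831 were higher in ish and lower in ish2, and 2140 the reverse), and ANXA4 rose and SYT7 fell in both. TRIM72, the muscle repair protein MG53, picked by role after its values were seen, rose by 0.36 in ish and fell by 0.15 in ish2.

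Of 6 caveola genes tested beside CAV3, namely CAV1, CAV2, the cavins PTRF and MURC, and the membrane-bending PACSIN2 and PACSIN3, 2 rose and 4 fell in each construct, with medians of -0.17 in ish and -0.26 in ish2. The genes that rose were not the same: MURC and PACSIN2 rose in ish and fell in ish2, and CAV1 and CAV2 did the reverse. Of all 15206 genes tested, 1831 and 2140 were called in these 2 opposite ways. PTRF and PACSIN3 fell in both constructs. MURC, the muscle cavin, rose by 0.55 in ish and fell by 0.73 in ish2, PACSIN2 rose by 0.50 in ish and PACSIN3 fell by 0.72 in ish. Of 10 T-tubule and triad genes, 8 rose and none fell in ish (median 1.03), and 3 rose and 5 fell in ish2 (median -0.056), again beside 39.1% of all genes higher in ish and 33.9% higher and 31.1% lower in ish2. STAC3, a partner of the calcium channel, rose by 1.47 in ish and JPH2 by 1.38. In ish2, STAC3 fell by 0.56, SPEG, a muscle kinase at the triad, by 0.63 and BIN3, a relative of BIN1, by 0.78, while JPH2 rose by 0.46.

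**Figure D5:**
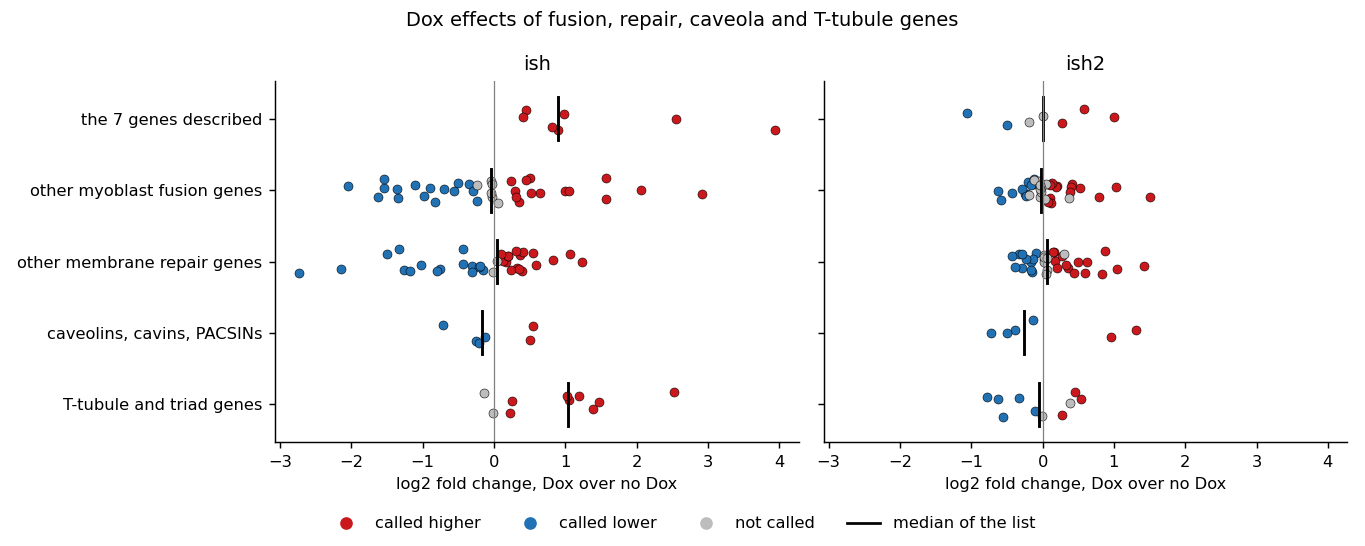
Log2 fold change with Dox (horizontal axis, same scale in both panels) of the 7 genes and of the 4 lists around them in ish (left) and ish2 (right), one point per tested gene, coloured by the edgeR call, with the median of each list as a bar. In ish all 7 genes and 8 of 10 T-tubule genes are called higher, beside 39.1% of all genes tested. The other fusion and repair lists scatter about 0 there.

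The promoters of 3 members are shown because DYSF and MYOF moved together in both constructs whereas CAV3 rose in ish alone. The sequences are RefSeq's for GRCh38.p14, read 5′ to 3′ on the strand of the gene, and cover the 250 bases before the RefSeq start, at chr3:8733552-8733801 (plus strand) for CAV3, chr2:71453311-71453560 (plus) for DYSF and chr10:93482335-93482584 (minus) for MYOF. Capitals mark the E-box, CANNTG, the short motif that MyoD family factors bind, which reads as CANNTG on both strands.
CAV3: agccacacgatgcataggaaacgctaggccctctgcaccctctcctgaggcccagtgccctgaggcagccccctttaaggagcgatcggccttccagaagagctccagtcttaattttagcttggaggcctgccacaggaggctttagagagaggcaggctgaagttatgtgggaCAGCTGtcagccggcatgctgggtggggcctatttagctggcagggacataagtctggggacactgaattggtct
DYSF: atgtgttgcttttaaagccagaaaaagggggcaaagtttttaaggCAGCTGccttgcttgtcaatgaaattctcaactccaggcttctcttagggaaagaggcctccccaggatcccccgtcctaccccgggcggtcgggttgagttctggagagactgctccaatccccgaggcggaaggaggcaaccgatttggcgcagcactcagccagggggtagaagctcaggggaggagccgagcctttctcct
MYOF: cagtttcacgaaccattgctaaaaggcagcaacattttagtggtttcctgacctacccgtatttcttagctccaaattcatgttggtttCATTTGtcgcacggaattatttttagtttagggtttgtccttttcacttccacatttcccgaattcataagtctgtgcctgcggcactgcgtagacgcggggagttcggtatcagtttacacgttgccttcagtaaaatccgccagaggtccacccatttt
Each window held 1 E-box, at 75 bases before the start in CAV3, 205 in DYSF and 161 in MYOF, counted to its leading base. In CAV3 and DYSF it was CAGCTG and in MYOF CATTTG. Of 35114 RefSeq promoter windows of this length, 61.8% held a CANNTG and 14.0% a CAGCTG, which is one form of CANNTG. The BIN1 window held 1 CAGCTG, and the 3 CAPN3 windows held 0, 2 and 2 E-boxes. Such matches describe the letters of these windows, not binding, and which starts RD cells use was not measured.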

How the data were processed

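The authors deposited raw read counts per gene symbol for the 12 libraries, without normalization. Per the labels' protocols, the stranded mRNA libraries were sequenced as paired-end reads. Per the submitters' processing notes, the tools were STAR 2.7.3a, Subread 1.6.3 with featureCounts, and Trim Galore 0.6.4, on GRCh38; the sources used here do not state the annotation or strand setting. Column headers gave construct, treatment and replicate. Sh1 was taken as ish, the construct left beside ish2. Rows of unassigned reads (21.0% to 24.4% of each library) were left out.

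Genes were kept by filterByExpr (15206 of 26485), scaled by TMM and fitted with edgeR 4.0.16 (R 4.3.3, glmQLFit with robust spread, 4 group means). The SE is back-calculated from the F statistic, and confidence intervals use it with the moderated degrees of freedom. The common biological coefficient of variation was 2.44%, so small changes pass. A test on simulated data held few changed genes. The calls there recovered 73.2%, 85.9% and 88.9% of the genes altered by 1.25, 1.5 and 2 times in ish (14986 genes tested). In ish2 they recovered 70.4%, 87.3% and 97.7% (14997 genes tested). Of the unchanged genes, 13 were called in ish and 7 in ish2. In the real data 78.6% and 65.0% of genes were called, so the simulated rates need not hold there. Positions and exon lengths are from GENCODE 29. RefSeq promoters were found for DYSF, MYOF, CAV3, CAPN3 and BIN1.

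The members and lists were chosen with earlier results of these data known. Named genes are NT5E, the 7 members, the 2 genes nearest each by correlation, and from each list up to 3 called genes per construct with the largest change and at least 1 CPM, plus MYOG and MYOD1. A list gene named for one construct is also given in the other in places. MYMX, PTRF and the genes said to be picked by role were named beside that rule. Of the other fusion genes, 39 of 40 symbols were found in the table. Alternatives were other size factors, DESeq2 1.42.0, other filters, smaller fits, a replicate block and leaving out each library. One gene that this rule names is not reported here.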

Additional observations from a re-analysis of the deposited data

Results flagged for a closer look

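For each of the 7 genes the Dox effect differed between the constructs by a test of the difference itself (edgeR, 3 libraries per group). As ish2 minus ish on the log2 scale, the difference was -3.61 for TMEM8C, -4.13 for CAV3, -0.98 for NCAM1, -0.90 for CAPN3 and -0.54 for BIN1. It was 0.10 for DYSF and 0.14 for MYOF, the smallest differences of the 7. The DYSF difference was not called in 4 of 18 alternatives, DESeq2 among them. Differences of either sign were called for 72.6% of all genes tested.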

How the results depend on the processing

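Over 19 alternatives, 507 of 518 recomputed log2 fold changes of the 7 genes kept their side of the threshold and, where called, their direction. The call was lost in 9 and gained in 2, and no called value changed sign. The NCAM1 change in ish2, never called, ran from -0.039 to 0.0031. In every alternative all 7 genes rose in ish and 3 rose in ish2. The number that fell in ish2 was 1 to 2 when single libraries were left out, the loss being that of CAPN3. The number with a higher effect in ish2 was 1 by DESeq2 and 1 to 2 when single libraries were left out, the loss being that of DYSF. The replicate numbers did not pair the libraries (residual correlations of like numbers -0.0798 to 0.0295, and their own number was the closest for 3 of 12 libraries). With the replicate block, 1240 genes were called between the uninduced lines in place of 3974, and 11821 in ish and 9695 in ish2 in place of 11945 and 9883. Of the 7 genes, CAPN3 between the uninduced lines lost its call under the block and no other call changed. The cause was not tested in either case. CAPN3 had 88 to 105 reads per uninduced ish library, 35 to 55 per uninduced ish2 library and 25 to 46 per induced ish2 library.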
